A study of Homo sapiens with 6 samples.

Results

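Glycolysis and the cellular response to low oxygen were followed here through 35 genes, chosen by name: glycolytic enzymes, enzymes that regulate the flux, carriers of glucose and lactate, and genes that hypoxia is known to induce. Each gene was read from the probe set that carries its symbol alone, and where a gene had several, from the one of highest mean over the 6 arrays. Of the 35 genes, 32 had such a probe set, among 18404 genes with one in the whole table. The 32 comprised 16 of 17 glycolytic enzymes and 16 of 18 other members. PGAM1 shared its 4 probe sets with PGAM4 in the platform annotation and is not analysed here, nor are SLC16A1 and SLC16A3.

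The RNA came from DEV cells, a line grown from a case of NLPHL (nodular lymphocyte predominant Hodgkin lymphoma, a lymphoma of B cell origin), so every sample stems from 1 line. DEV cells were kept for 5 days either alone (monoculture, 2 arrays), with CD3-positive T cells (2 arrays) or with CD14-positive monocytes (2 arrays), both taken from the blood of healthy donors and added at 10 blood cells per DEV cell. DEV cells were then freed of blood cells with magnetic beads against CD4, CD8 and CD14, a step that the methods describe for cocultures alone, so that bead handling and the presence of blood cells cannot be told apart. All values below are log2 expression values of an Affymetrix array, on which a difference of 1 is a doubling of signal, and the level of a gene can be compared between arrays but not with that of another gene. The labels do not say whether the replicates were separate cultures, so p-values measure the spread between these samples, which may be technical.

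Glycolysis turns glucose into pyruvate in the cytosol. Lactate dehydrogenase can then reduce pyruvate to lactate, while pyruvate dehydrogenase, which the kinase PDK1 inhibits, sends it into mitochondrial respiration. Several steps have alternative isoenzymes with their own tissue distribution and regulation. The transcription factor HIF-1, of which HIF1A encodes the oxygen-sensitive subunit, induces many of these enzymes together with genes for vessel growth and mitophagy when oxygen is short. With oxygen present, prolyl hydroxylases of the EGLN family mark the HIF1A protein for destruction, so that its activity is set mostly on the protein rather than on the transcript. The proto-oncogene MYC drives a partly overlapping set of glycolytic genes, LDHA among them.

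The promoters of these genes can carry the motif that HIF-1 recognises, ACGTG or GCGTG, and the E-box CACGTG, which MYC and its partner MAX bind and which contains ACGTG on both strands. Both motifs were searched for on both strands in the 250 bases before the RefSeq start site of each gene, with overlapping matches taken as 1 site. Promoters of 28 of the 32 measured members were in the RefSeq table (build GRCh38.p14). ACGTG or GCGTG occurred in 19 of these 28 windows (67.9%), against 43.1% of all 27305 promoters of that length, and the E-box in 5 (17.9%), against 6.49%. By group, the HIF-1 motif was found in 10 of 16 glycolytic enzymes and 9 of 12 other members. The following windows show how the motif is placed in the promoters of members that lay lower and higher in coculture, the 3 of smallest p on each side that had a window, and capitals mark the HIF-1 motif on either strand. They are LDHA (chr11:18394313-18394562, plus strand), PGK1 (chrX:78103998-78104247, plus strand), PDK1 (chr2:172555123-172555372, plus strand), ENO2 (chr12:6914330-6914579, plus strand), PFKL (chr21:44299803-44300052, plus strand) and ALDOC (chr17:28576896-28577145, minus strand).
LDHA: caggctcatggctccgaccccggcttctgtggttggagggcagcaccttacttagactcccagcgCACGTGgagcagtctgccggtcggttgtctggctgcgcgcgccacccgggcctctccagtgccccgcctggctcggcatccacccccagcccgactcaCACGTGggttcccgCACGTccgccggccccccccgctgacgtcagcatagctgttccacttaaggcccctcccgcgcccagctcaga
PGK1: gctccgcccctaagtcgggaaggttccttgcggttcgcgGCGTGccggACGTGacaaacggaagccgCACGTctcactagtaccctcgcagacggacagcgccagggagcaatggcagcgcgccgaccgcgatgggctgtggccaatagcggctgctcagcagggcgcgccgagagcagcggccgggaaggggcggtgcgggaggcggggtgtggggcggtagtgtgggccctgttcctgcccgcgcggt
PDK1: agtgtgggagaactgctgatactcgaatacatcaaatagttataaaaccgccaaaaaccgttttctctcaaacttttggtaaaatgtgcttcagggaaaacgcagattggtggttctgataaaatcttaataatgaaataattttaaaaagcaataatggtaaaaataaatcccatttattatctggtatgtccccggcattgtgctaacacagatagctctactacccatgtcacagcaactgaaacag
ENO2: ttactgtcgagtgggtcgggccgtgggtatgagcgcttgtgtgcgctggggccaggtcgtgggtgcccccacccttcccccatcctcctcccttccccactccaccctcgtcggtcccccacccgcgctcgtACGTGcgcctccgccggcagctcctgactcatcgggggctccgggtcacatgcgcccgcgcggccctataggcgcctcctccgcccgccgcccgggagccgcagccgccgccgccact
PFKL: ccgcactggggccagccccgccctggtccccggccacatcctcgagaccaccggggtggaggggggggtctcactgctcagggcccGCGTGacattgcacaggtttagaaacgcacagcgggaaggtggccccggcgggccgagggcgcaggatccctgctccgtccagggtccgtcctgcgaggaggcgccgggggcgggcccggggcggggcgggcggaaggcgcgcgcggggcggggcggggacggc
ALDOC: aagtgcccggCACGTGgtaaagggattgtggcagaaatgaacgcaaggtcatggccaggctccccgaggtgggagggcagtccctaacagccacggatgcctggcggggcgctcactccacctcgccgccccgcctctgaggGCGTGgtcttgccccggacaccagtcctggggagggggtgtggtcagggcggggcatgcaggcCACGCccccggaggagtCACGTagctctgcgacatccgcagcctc
LDHA holds 3 sites, 2 of them within E-boxes, PGK1 holds 3 sites and ALDOC holds 4, of which 1 lies within an E-box, while ENO2 and PFKL hold 1 each and the PDK1 window holds 0. SLC2A3, VEGFA, BNIP3L and NDRG1 were not in the table.

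Between cocultured and lone DEV cells, the means of these genes differed in both directions. The glucose carrier SLC2A3 rose. On the probe sets taken by rule, the largest differences downwards were those of LDHA, PKM, ENO1 and PGK1. They act in the later steps of glycolysis, where GAPDH hardly differed and ENO2 had a higher mean. The hypoxia-inducible genes NDRG1 and BNIP3L lay higher in coculture. Of the 32 members, 15 had higher and 17 had lower means over the 4 coculture arrays, with a median log2 difference of -0.07 against 0.03 over all 32321 probe sets. By limma with Benjamini-Hochberg adjustment over all probe sets, 1 of the 32, SLC2A3, passed in the upward direction (0.248% of all probe sets did so) and 0 passed downwards (0.47% of all). At an unadjusted p under 0.05 there were 7 higher and 8 lower members, against 8.22% and 10.6% of all probe sets.

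Non-overlap of the groups gives a view without a model. All 4 coculture arrays lay above both monoculture arrays for 8 of the 32 members (ENO2, PFKL, ALDOC, SLC2A3, NDRG1, BNIP3L, BNIP3 and ADM), against 15.2% of all probe sets. All 4 lay below both for 10 of the 32 (LDHA, PKM, ENO1, PGK1, HK2, PFKP, PDK1, SLC2A1, ANKRD37 and EGLN1), against 13.8%. Among the 60% of probe sets of highest mean, to which 31 of the 32 members belong, the corresponding shares were 17.5% and 19.8%.

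**Figure D1:**
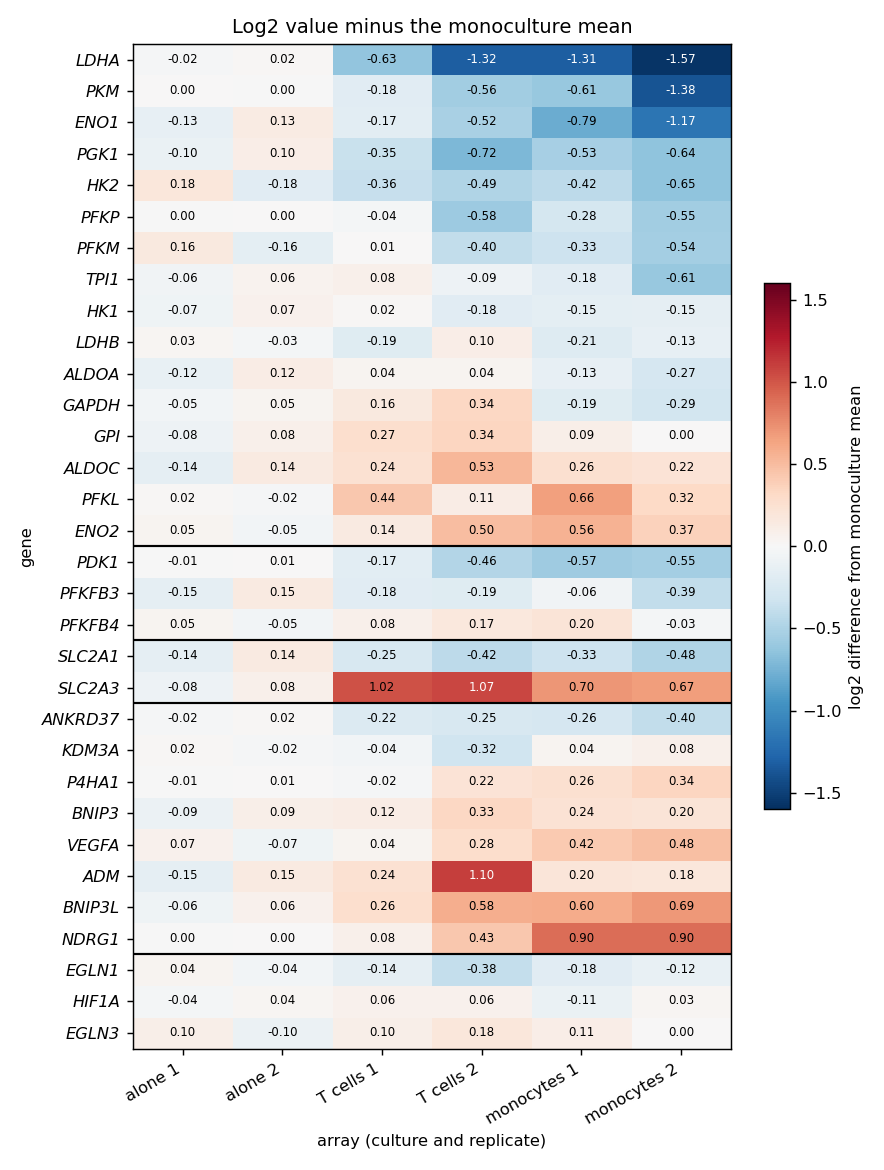
Log2 value of each of the 32 measured members (rows, by role: glycolytic enzymes, flux regulators, glucose carriers, other hypoxia targets, HIF1A with its hydroxylases) minus the monoculture mean of that gene, on each of the 6 arrays (columns: alone, with T cells, with monocytes), with the value printed in each cell. LDHA lies lower on all 4 coculture arrays (-0.63 to -1.57) and SLC2A3 higher (0.67 to 1.07), while T cell coculture replicate 1 is the palest coculture column.

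Among the carriers that bring glucose into the cell, the 2 measured members differed in opposite directions. SLC2A3, which encodes the high-affinity neuronal type carrier GLUT3, stood at 7.42 and 7.57 in monoculture, 8.51 and 8.56 with T cells, and 8.19 and 8.16 with monocytes. Both coculture groups lay above monoculture, and the T cell arrays lay above the monocyte arrays. SLC2A3 rose by 0.87 ± 0.082 (standard error, 1.82-fold, limma adjusted p = 0.0338). The difference was 1.04 ± 0.095 with T cells (limma adjusted p = 0.0780) and 0.69 ± 0.095 with monocytes (adjusted p = 0.0510), neither of which passed by itself. The call ended when either monoculture array or either array with monocytes was left out, with the difference between 0.79 and 0.94 and the adjusted p between 0.123 and 0.290, and it ended with an intensity trend in the variance prior (adjusted p = 0.0607). SLC2A14 is a near-identical neighbour of SLC2A3, so signal could be shared, and its own probe set differed by 0.05 ± 0.092. In bulk RNA of this kind, a different mix of cells and a different amount of RNA per cell cannot be told apart.

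SLC2A1, which encodes the widely expressed carrier GLUT1, stood at 6.72 and 6.99 in monoculture, 6.60 and 6.43 with T cells, and 6.53 and 6.38 with monocytes. Every coculture array lay below both monoculture arrays. The difference of -0.37 ± 0.11 did not pass (limma adjusted p = 0.160).

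The first steps of glycolysis trap and split the sugar. HK2, the inducible hexokinase, had values of 7.14 and 6.79 in monoculture, 6.60 and 6.48 with T cells, and 6.55 and 6.32 with monocytes, without overlap. Its difference was -0.48 ± 0.13 (limma adjusted p = 0.124), against -0.12 ± 0.094 for HK1, the constitutive hexokinase, whose T cell arrays overlapped with monoculture. The isomerase gene GPI differed by 0.18 ± 0.087. Of the phosphofructokinases, which catalyse the committed step, the platelet type PFKP (-0.36 ± 0.17) and the muscle type PFKM (-0.31 ± 0.16) had lower means and the liver type PFKL a higher one (0.38 ± 0.14, limma adjusted p = 0.208). PFKL stood at 6.87 and 6.83 in monoculture, 7.29 and 6.96 with T cells, and 7.51 and 7.17 with monocytes, and no coculture array reached down to monoculture. The aldolase gene ALDOC differed by 0.31 ± 0.12 with all 4 coculture arrays above monoculture, while ALDOA differed by -0.08 ± 0.10 and overlapped.

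TPI1, the triose phosphate isomerase, had 2 probe sets that disagreed. The brighter, taken by rule, differed by -0.20 ± 0.14 (limma adjusted p = 0.527) and the dimmer by -0.63 ± 0.10 (adjusted p = 0.0565). Their mean gave -0.41. GAPDH, which catalyses the oxidation step after the split, had nearly the same mean in coculture and monoculture, with a difference of 0.0011 ± 0.091, and with the 2 cocultures on opposite sides.

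On the probe sets taken by rule, the largest downward differences within glycolysis lay in the pay-off steps and at LDHA. Of these steps, GAPDH hardly differed and ENO2 had a higher mean. The dimmer TPI1 probe set, of an earlier step, differed by -0.63, more than PGK1. PGK1, the first enzyme to yield ATP, stood at 9.37 and 9.58 in monoculture, 9.12 and 8.75 with T cells, and 8.95 and 8.84 with monocytes. All coculture arrays lay below monoculture (-0.56 ± 0.13, limma adjusted p = 0.0932). ENO1, the ubiquitous enolase, had 10.68 and 10.95 in monoculture, 10.64 and 10.29 with T cells, and 10.02 and 9.64 with monocytes. The lower monoculture array and the higher T cell array of ENO1 almost met, whereas both monocyte arrays were clearly apart, and the difference over both cocultures was -0.66 ± 0.16 (limma adjusted p = 0.103). ENO2, the enolase typical of neurons, lay on the other side, with 6.94 and 6.84 in monoculture, 7.03 and 7.39 with T cells, and 7.45 and 7.26 with monocytes. Its difference was 0.39 ± 0.13 (limma adjusted p = 0.171). The pyruvate kinase gene PKM differed by -0.68 ± 0.23, with group means of 11.71 ± 0.0067 (SD, n = 2) alone, 11.34 ± 0.27 in T cell and 10.72 ± 0.55 in monocyte coculture, where the replicates lay far apart.

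LDHA encodes the lactate dehydrogenase subunit that favours the formation of lactate. Its values were 9.76 and 9.81 in monoculture, 9.16 and 8.47 with T cells, and 8.47 and 8.21 with monocytes. Every coculture array lay below monoculture, replicate 1 with T cells by the least. The difference of -1.21 ± 0.20 (2.31-fold) was the largest of any member and missed the threshold (limma adjusted p = 0.0560). LDHA passed without T cell coculture replicate 1 (-1.38, adjusted p = 0.0127), without replicate 2 of that group (0.0433), with median centring (0.0477) and without the dimmest 40% of probe sets (0.0417), and its adjusted p reached 0.307 without monoculture replicate 2. LDHB, the subunit of tissues that use lactate, differed by -0.11 ± 0.11, with T cell coculture replicate 2 above both monoculture arrays. MYC stood at 10.03 and 10.12 alone, 8.42 and 6.54 with T cells, and 6.71 and 6.38 with monocytes. Its difference of -3.06 ± 0.48 did not pass here (limma adjusted p = 0.0540). The study itself reported lower MYC in coculture by real-time PCR and by Western blot. For MYC as for LDHA, T cell coculture replicate 1 was nearest to monoculture, and that array was also the closest over all probe sets.

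Over the 16 measured enzymes, 5 had higher and 11 lower means with the cocultures pooled (median -0.16), and 0 passed by limma. The corresponding counts were 6 and 10 with T cells and 4 and 12 with monocytes. Of the 16, 3 lay wholly above and 6 wholly below monoculture, against 15.2% and 13.8% of all probe sets, and 3 were higher and 5 lower at an unadjusted p under 0.05, against 8.22% and 10.6%.

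**Figure D2:**
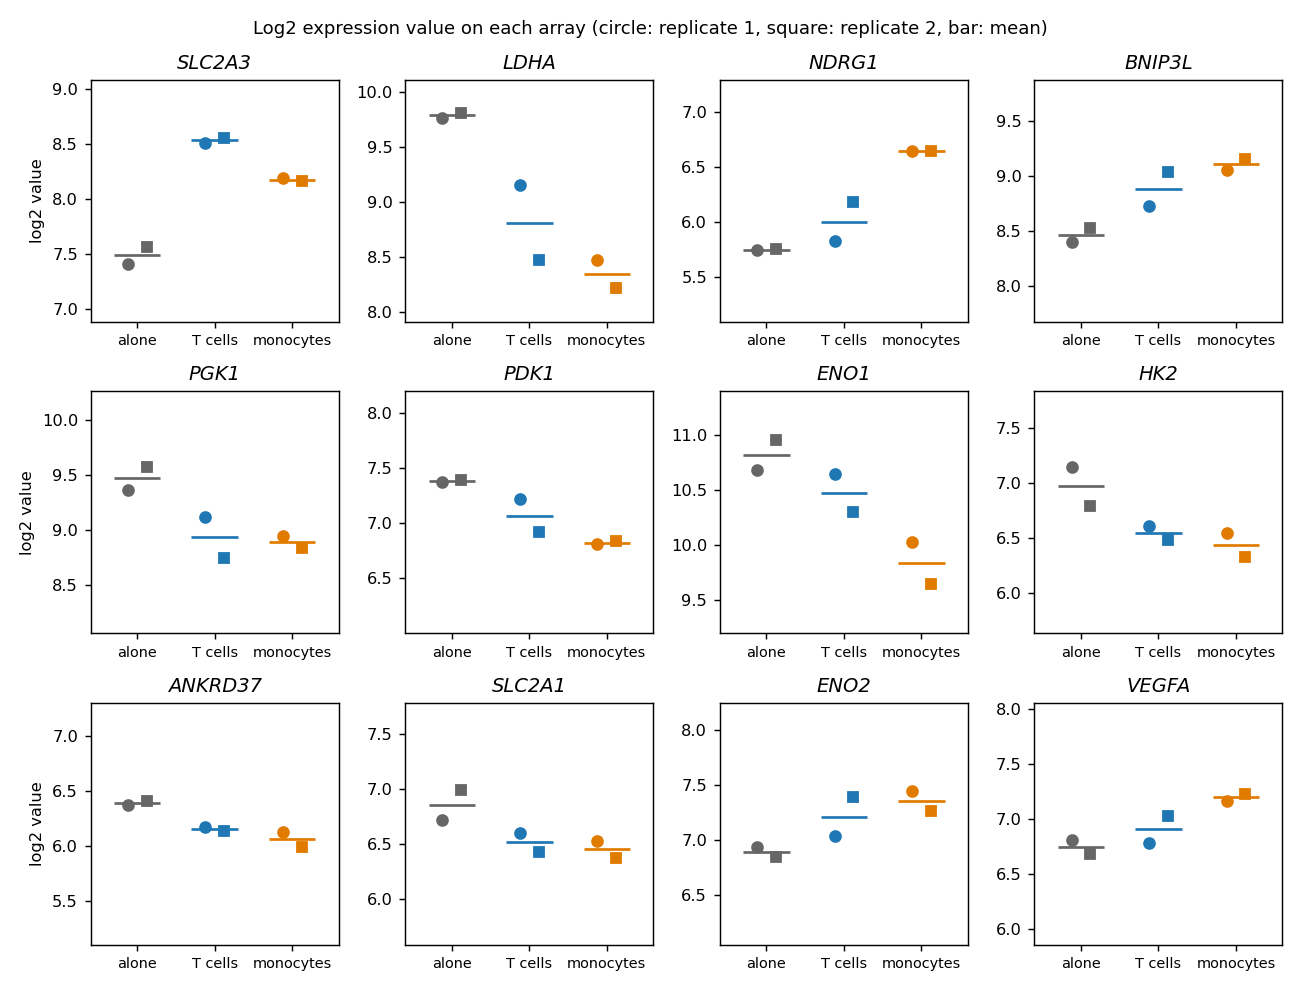
Log2 expression value (y axis, each panel drawn to the same span) of the 12 members of lowest p when the cocultures are pooled, in DEV cells alone (grey), with T cells (blue) and with monocytes (orange), with replicate 1 as a circle, replicate 2 as a square and the mean of 2 arrays as a bar. The replicates of SLC2A3 coincide closely in every group, whereas those of LDHA with T cells stand at 9.16 and 8.47.

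Of the 3 enzymes that steer glycolytic flux, 1 had a higher and 2 had lower means (median -0.21). PDK1, which keeps pyruvate out of the mitochondria by inhibiting pyruvate dehydrogenase, stood at 7.38 and 7.39 in monoculture, 7.22 and 6.92 with T cells, and 6.81 and 6.84 with monocytes. All coculture arrays lay below monoculture, with monocytes lowest (-0.44 ± 0.10, limma adjusted p = 0.0968). The bifunctional PFKFB enzymes, which make and degrade an activator of phosphofructokinase, showed smaller differences. These were -0.21 ± 0.13 for PFKFB3 and 0.11 ± 0.097 for PFKFB4, and in both genes the monocyte arrays overlapped with monoculture.

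The hypoxia-induced genes outside glycolysis had mostly higher means over both cocultures, 6 of 8 against 2 lower (median 0.26), and 0 passed by limma. Of the 8, 4 lay wholly above monoculture and 1 wholly below, against 15.2% and 13.8% of all probe sets, and 3 were higher and 1 lower at an unadjusted p under 0.05, against 8.22% and 10.6%. NDRG1, a stress-responsive gene of differentiating cells, stood at 5.74 and 5.75 in monoculture, 5.83 and 6.18 with T cells, and 6.65 and 6.65 with monocytes. The monocyte arrays stood far above the rest and the T cell arrays in between (0.58 ± 0.11 over both, limma adjusted p = 0.0720). BNIP3L, a receptor for the removal of mitochondria by autophagy, stood at 8.40 and 8.52 in monoculture, 8.72 and 9.04 with T cells, and 9.06 and 9.15 with monocytes, again in that order (0.53 ± 0.11, adjusted p = 0.0793). Its relative BNIP3 differed by 0.22 ± 0.099, with all coculture arrays above monoculture.

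VEGFA, the growth factor of blood vessels, stood at 6.81 and 6.68 in monoculture, 6.78 and 7.03 with T cells, and 7.16 and 7.23 with monocytes. T cell coculture replicate 1 lay within the monoculture range, and the monocyte arrays lay above it (0.31 ± 0.10 over both, limma adjusted p = 0.180). The collagen prolyl hydroxylase gene P4HA1 differed by 0.20 ± 0.094 and the vasoactive peptide gene ADM by 0.43 ± 0.24. The spread of ADM came from T cell coculture replicate 2, at 6.85 against 5.93 to 5.998 on the other coculture arrays, and without that array the difference was 0.22. ANKRD37, an ankyrin repeat gene, was the exception, at 6.38 and 6.41 in monoculture, 6.17 and 6.14 with T cells, and 6.13 and 5.996 with monocytes. It lay below monoculture on all coculture arrays (-0.28 ± 0.080, limma adjusted p = 0.134). The histone demethylase gene KDM3A differed by -0.06 ± 0.10.

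HIF1A and its prolyl hydroxylases showed small differences. HIF1A stood at 9.04 and 9.11 in monoculture, 9.14 and 9.14 with T cells, and 8.97 and 9.10 with monocytes, with both T cell arrays just above monoculture and the monocyte arrays overlapping it (0.01 ± 0.081, limma adjusted p = 0.964). EGLN1, the main HIF prolyl hydroxylase, differed by -0.21 ± 0.096 with all coculture arrays below monoculture, and EGLN3, a hydroxylase that hypoxia induces, by 0.10 ± 0.094 with overlap. These are transcript levels and carry no information on the amount of HIF1A protein.

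**Figure D3:**
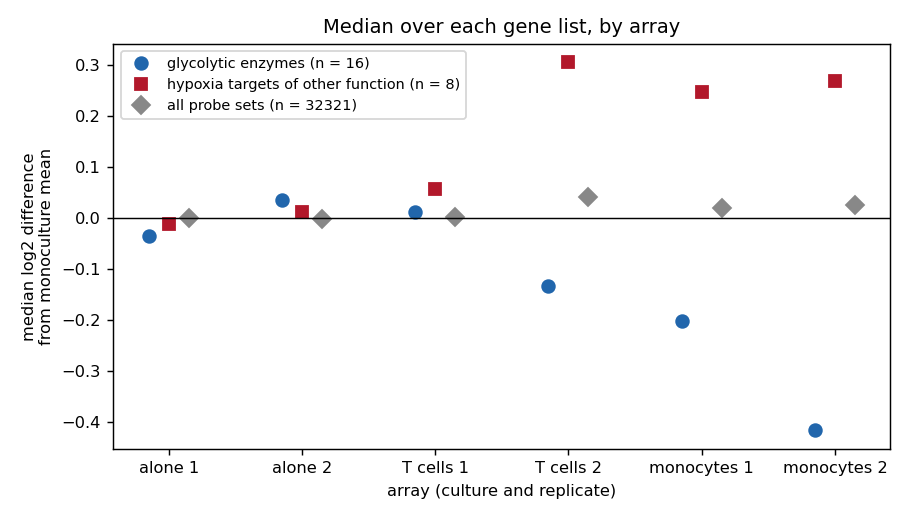
Median over the genes of a list of the log2 difference from the monoculture mean (y axis) on each of the 6 arrays (x axis), for 16 glycolytic enzymes, 8 hypoxia targets of other function and all 32321 probe sets. In T cell coculture replicate 1 the enzyme median (0.01) and the hypoxia target median (0.06) stay near all probe sets, while on the other 3 coculture arrays the enzymes run from -0.13 to -0.42 and the hypoxia targets from 0.25 to 0.31.

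Some related proteins of 1 family had differences of opposite sign over both cocultures, in a list where 15 members had higher and 17 had lower means. ENO1 and ENO2, SLC2A1 and SLC2A3, and PFKP and PFKL each lay wholly below and wholly above monoculture, respectively. ALDOA and ALDOC, PFKFB3 and PFKFB4, and EGLN1 and EGLN3 also had means of opposite sign, with groups that overlapped for at least 1 of each pair. Of these, ALDOA (-0.08 ± 0.10), PFKFB4 (0.11 ± 0.097) and EGLN3 (0.10 ± 0.094) lay near 0. HK1 and HK2 and LDHA and LDHB shared the lower side, and BNIP3 and BNIP3L the higher side, with unequal sizes. The families were set side by side as a description, and the difference between relatives was not tested.

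**Figure D4:**
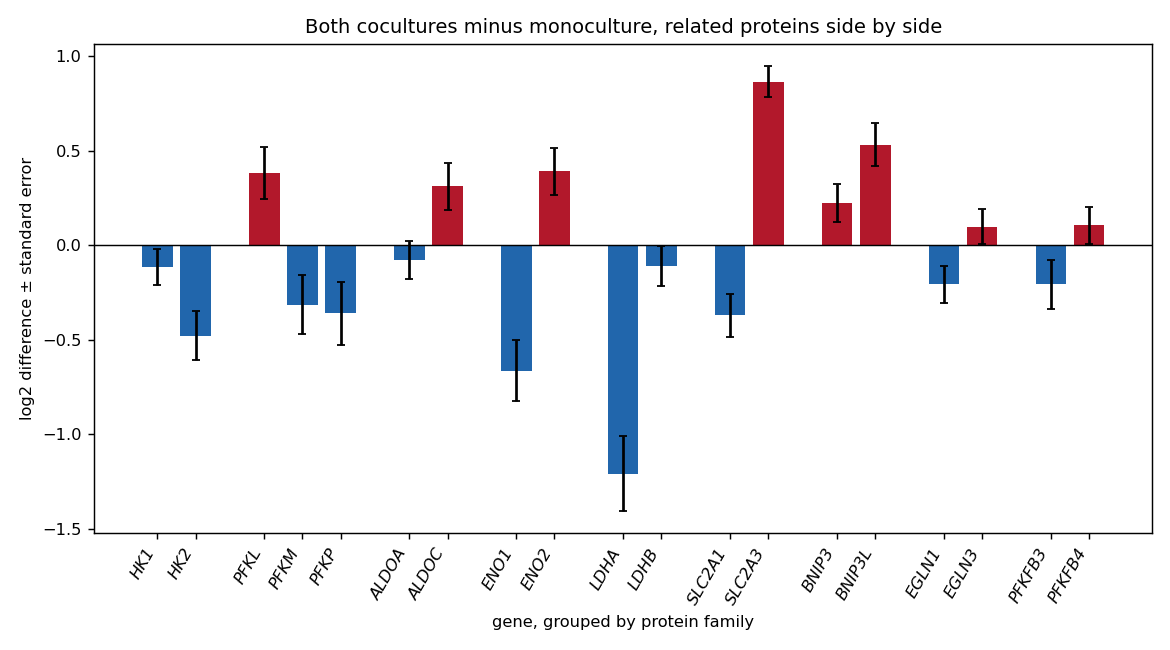
Log2 difference of both cocultures minus monoculture (bars, with the standard error of the limma fit) for 19 members grouped by protein family, in red where the mean was higher and in blue where it was lower. In the enolases ENO1 stands at -0.66 and ENO2 at 0.39, and in the glucose carriers SLC2A1 at -0.37 and SLC2A3 at 0.87.

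The 2 kinds of blood cell were next set apart. With T cells, 0 members passed by limma (0% of all probe sets did), and 5 lay higher and 6 lower at an unadjusted p under 0.05, against 6.7% and 8.73% of all. With monocytes, 0 passed (0.579% of all did), and 7 lay higher and 9 lower, against 7.67% and 9.88%. When monocyte coculture and monoculture were fitted alone, 6 members passed with monocytes: SLC2A3, NDRG1 and BNIP3L were higher and LDHA, ENO1 and PDK1 lower. In that fit 326 probe sets passed higher and 841 lower of 32321. Leaving out either T cell array repeats the same fit, because a group of 1 array adds no spread, and is not a further alternative. The comparisons with T cells and with monocytes share their monoculture arrays, so their values are given side by side.

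The enzyme median was -0.06 with T cells and -0.32 with monocytes, and it was 0.01 with T cells when replicate 2 was left out. LDHA differed by -0.97 ± 0.23 with T cells and -1.44 ± 0.23 with monocytes, PGK1 by -0.54 ± 0.15 and -0.58 ± 0.15, and HK2 by -0.42 ± 0.15 and -0.53 ± 0.15. PKM differed by -0.37 ± 0.26 and -0.99 ± 0.26 and ENO1 by -0.35 ± 0.19 and -0.98 ± 0.19. The other members had medians of 0.11 with T cells and 0.07 with monocytes. NDRG1 differed by 0.26 ± 0.13 with T cells and 0.90 ± 0.13 with monocytes (limma adjusted p = 0.0530), BNIP3L by 0.42 ± 0.13 and 0.64 ± 0.13, and PDK1 by -0.31 ± 0.12 and -0.56 ± 0.12.

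**Figure D5:**
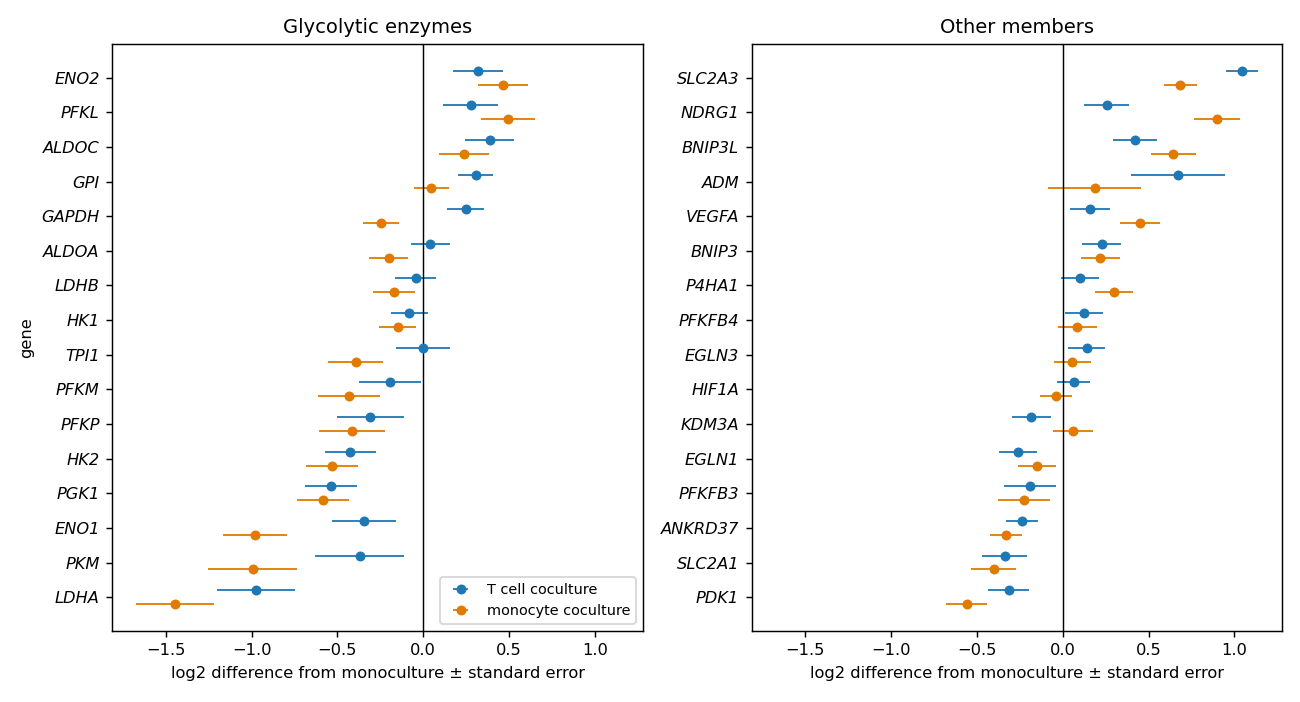
Log2 difference from monoculture (x axis, with the standard error of the limma fit) of each measured glycolytic enzyme (left) and other member (right) with T cells (blue) and with monocytes (orange). LDHA reaches -0.97 and -1.44, GAPDH lies on opposite sides at 0.25 and -0.24, and NDRG1 stands at 0.26 with T cells and 0.90 with monocytes.

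The direct comparison of monocyte with T cell coculture had 0 members past the threshold by limma (0% of all probe sets passed). At an unadjusted p under 0.05, 2 members were higher with monocytes, NDRG1 and VEGFA, against 3.47% of all probe sets, and 5 were lower, GAPDH, SLC2A3, ENO1, GPI and TPI1, against 4.03%. NDRG1 differed by 0.64 ± 0.13 (limma adjusted p = 0.444), GAPDH by -0.49 ± 0.11 (0.444), SLC2A3 by -0.36 ± 0.095 (0.521), ENO1 by -0.64 ± 0.19 (0.538), VEGFA by 0.29 ± 0.12 (0.651), GPI by -0.26 ± 0.10 (0.645) and TPI1 by -0.39 ± 0.16 (0.663). Of the 16 enzymes, 14 had lower means with monocytes than with T cells (median -0.19), against a median of 0.0019 over all probe sets. PFKL and ENO2 were the 2 with higher means.

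Genes around these pathways were read from lists that continue them. Among 17 measured further glycolytic isoenzymes and gluconeogenic enzymes, the fructose bisphosphatase gene FBP2 rose by 0.96 ± 0.11 (limma adjusted p = 0.0439), with values of 6.51 and 6.55 alone, 7.20 and 7.48 beside T cells, and 7.55 and 7.73 beside monocytes, and it also passed in the comparison with monocytes (1.11 ± 0.13, adjusted p = 0.0455). The call with monocytes ended with an intensity trend, without either monoculture array and without monocyte coculture replicate 1, where no probe set passed. Fructose bisphosphatase runs the phosphofructokinase step backwards. The ADP-dependent glucokinase gene ADPGK came next at -0.35 ± 0.080 without passing, and the list median was 0.02. Among 12 other hexose and monocarboxylate carriers, the fructose carrier SLC2A5 fell by 0.86 ± 0.11 (limma adjusted p = 0.0448), with values of 7.13 and 7.16 alone, 6.29 and 6.09 beside T cells, and 6.51 and 6.25 beside monocytes. The lactate and pyruvate carrier SLC16A7 differed by 0.74 ± 0.15 without passing, and 11 of the 12 had higher means (median 0.15).

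Of 23 further hypoxia-related genes, 15 had higher means (median 0.15) and 1 passed, the transferrin receptor gene TFRC, which serves iron uptake and fell by 0.64 ± 0.082 (limma adjusted p = 0.0448). TFRC stood at 8.29 and 8.32 alone, 7.65 and 7.56 beside T cells, and 7.67 and 7.80 beside monocytes. The histone demethylase gene KDM4B stood next at 0.50 ± 0.084 (adjusted p = 0.0566). The calls of FBP2, SLC2A5 and TFRC, like that of SLC2A3, ended when either monoculture array or either monocyte coculture array was left out, since no probe set passed for both cocultures then. In 11 further components of the HIF pathway 0 passed by limma, with 1 higher and 2 lower at an unadjusted p under 0.05 (8.22% and 10.6% of all probe sets), and CUL2, the scaffold of the ligase that removes HIF1A, at -0.40 ± 0.091 and ARNT, the partner of HIF1A, at 0.31 ± 0.082. In 13 genes of pyruvate entry into mitochondria 0 passed (0 higher and 2 lower at an unadjusted p under 0.05), with the dehydrogenase subunits DLD at -0.82 ± 0.22 and PDHB at -0.53 ± 0.20. Of 8 pentose phosphate pathway genes, 6 had lower means (median -0.26) and 0 passed (0 higher and 2 lower), with PGD at -0.34 ± 0.081 and TALDO1 at -0.26 ± 0.097.

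Blood cells also express several of these genes, so markers of other cells were read on the same arrays. The mean log2 value of 11 T cell markers lay between 5.50 and 5.52 in monoculture, 5.57 and 5.63 with T cells, and 5.45 and 5.46 with monocytes. CD3D was bright in DEV cells without any T cells (8.26 and 8.33) and lower in coculture. Its difference with monocytes passed (-0.79 ± 0.090, limma adjusted p = 0.0455), but no probe set passed there with an intensity trend. With T cells, 9 of the 11 had higher means, and CD3D (-0.20) and CD3G (-0.18) lower ones. With monocytes, where no T cells were added, 7 of the 11 had higher means. Of all 32321 probe sets, 18162 had higher means with T cells and 18300 with monocytes. IL7R stood at 4.89 and 4.81 alone and 5.52 and 5.16 with T cells, a difference of 0.48 (limma adjusted p = 0.195). CD3E stood at 5.06 and 4.98 alone and 5.50 and 5.12 with T cells, a difference of 0.29 (limma adjusted p = 0.435). Neither passed, and CD3E lay above monoculture with monocytes too, at 5.11 and 5.31. The mean of 11 monocyte markers lay between 5.56 and 5.63 in monoculture, 5.61 and 5.71 with T cells, and at 6.24 and 5.78 with monocytes. LYZ, an abundant monocyte transcript, stood at 8.42 in monocyte coculture replicate 1 and between 4.98 and 5.09 on the other 5 arrays, and CD14 at 6.15 against at most 5.42. CD68 stood at 9.15 and 9.45 in the monocyte arrays and at 7.64 and 8.44 in the T cell arrays, against 7.13 and 7.62 in monoculture. Of the 11, 7 had higher means with monocytes, and VCAN (-0.19), S100A9 (-0.07), C1QB (-0.02) and C1QA (-0.02) had lower ones.

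Without monocyte coculture replicate 1, the array with the LYZ signal, SLC2A3 differed by 0.86, NDRG1 by 0.58 and LDHA by -1.27 over both cocultures. The array that then remained for monocytes was high in CD68 (9.45), a gene also bright in monoculture (7.13 and 7.62). LYZ stood at 5.06 there, near its level in monoculture. The mean of the 11 monocyte markers on that array was 5.78, against 5.56 and 5.63 in monoculture. The paper reports a purity check by flow cytometry after the depletion, and no enhanced T cell or monocyte transcripts in cocultured DEV cells. Beside that statement stands LYZ at 8.42 on monocyte coculture replicate 1. What blood cell RNA contributed to the difference of any member was not tested. The mean of 7 B cell markers was 8.51 and 8.52 in monoculture, 8.62 and 7.998 with T cells, and 8.14 and 7.89 with monocytes, so that 3 of the 4 coculture arrays lay below monoculture. Over both cocultures 3 of the 7 had higher means (CD22 by 0.70, MS4A1 by 0.57 and CD79A by 0.07) and the other 4 lower means (PAX5 at -1.86, FCRLA at -1.07, CD79B at -0.61 and BLK at -0.25), and none passed by limma (adjusted p from 0.0545 to 0.899). What these shifts had to do with the members was not tested.

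The 6 arrays had median log2 values of 5.64 to 5.73, and the correlation between arrays over all probe sets ran from 0.967 to 0.990. Of the coculture arrays, replicate 1 with T cells stood closest to the monocultures: 79 probe sets exceeded their mean by over 1 on the log2 scale and 75 lay as far below it, against 130 to 358 above and 219 to 584 below on the other coculture arrays. Without that array 7 members passed over both cocultures by limma, with SLC2A3, NDRG1, BNIP3L and ADM higher and LDHA, PGK1 and PDK1 lower, among 2329 probe sets that passed.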

How the data were processed

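RNA of DEV cells, 40 ng per sample, was amplified and biotin-labelled by the authors and hybridised to Affymetrix Gene 1.0 ST arrays, 2 arrays in each of 3 groups. The authors deposited 1 table of log2 expression values for 32321 probe sets on the 6 arrays. How these log2 values had been background-corrected and normalized is not given in the sources that were used, and they were taken as deposited. Probe sets were named from the platform annotation: 19158 had 1 gene symbol, of which 19128 were brought up to date by Entrez identifier, and 1388 had several and were not used for naming. Values below were computed from that table.

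Groups were compared with limma 3.58.1 in R 4.3.3 (lmFit and eBayes, 1 mean per group over all 6 arrays, two-sided). The fit had 3 residual degrees of freedom and a prior of 3.08. There were 4 comparisons: both cocultures with monoculture, each coculture with monoculture, and the cocultures with each other. P-values were adjusted by Benjamini-Hochberg over all probe sets in each comparison and called at an adjusted p under 0.05. Errors of differences are standard errors of this fit, and errors of group means are SD. The procedure was tested on simulated data with known changes. Those changes were larger than most differences of the members, and the noise was independent between arrays. The test therefore does not show how well smaller differences are found. The number of arrays limits the precision.

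Every measured member is named. From each further list, the called genes and the 2 of smallest p for both cocultures were named, and 12 members were shown array by array, the called ones first and then those of smallest p. The members and lists were chosen with earlier results of these data known, so lists are described by counts and medians and carry no test. Motif matches were read from RefSeq promoter sequences. The alternatives tried were quantile normalization, median centring, leaving out the dimmest 40% of probe sets, the replicate number as a block, the mean of all probe sets of a gene, an intensity trend, fits on the compared groups alone, and leaving out each array in turn.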

Additional observations from a re-analysis of the deposited data

Results flagged for a closer look

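For 3 members, both T cell coculture arrays lay on one side of the monoculture mean and both monocyte coculture arrays on the other. GAPDH, the glycolytic dehydrogenase that the study also used as reference transcript in real-time PCR, stood at 12.98 and 13.16 with T cells and at 12.63 and 12.53 with monocytes, against 12.77 and 12.87 in monoculture. Monocyte minus T cell coculture was -0.49 ± 0.11 for GAPDH (limma adjusted p = 0.444, unadjusted 0.00336). For the aldolase gene ALDOA this difference was -0.24 ± 0.12 (limma adjusted p = 0.716, unadjusted 0.0796), and for the demethylase gene KDM3A it was 0.24 ± 0.12 (limma adjusted p = 0.722, unadjusted 0.0829). None of the 3 differences passed after adjustment over all probe sets.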

How the results depend on the processing

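Of the counts and list medians under all alternatives, 132 kept their value within the spread or within 1.5 times and 21 moved. Some of the 132 could not have moved. The replicate block, the intensity trend and the fits on the compared groups alone leave every log2 difference, and so every list median, as it is. Counts of 0 that stayed at 0 were also taken as kept. The tally therefore does not measure how firm the calls are. For both cocultures, the members called numbered 2 with median centring, 2 without the dimmest 40% of probe sets, 0 with an intensity trend, and from 0 to 7 when 1 array was left out. The number was 0 without either monoculture array or either monocyte array, and 7 without T cell coculture replicate 1. For T cell coculture it ran from 0 to 3, with 3 (SLC2A3, LDHA and ADM) without T cell coculture replicate 1. For monocyte coculture it was 1 with quantile normalization, 2 with median centring and 3 without the dimmest probe sets. It was 6 when the 2 groups were fitted alone. Leaving out either T cell array repeats that fit and is not a further alternative. A group left with 1 array was assumed to vary like the others. The cause of these shifts was not tested.

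The enzyme median with monocytes ran from -0.42 to -0.20 when 1 array was left out. The median of the other members with monocytes was 0.14 with quantile normalization, 0.0058 with median centring and from 0.038 to 0.15 when 1 array was left out. For monocyte against T cell coculture it ran from -0.088 to 0.045. Members near 0 changed sign for both cocultures: ALDOA with quantile normalization (0.061) and within a range of -0.20 to 0.043 when 1 array was left out, GAPDH with quantile normalization (-0.11), median centring (-0.062) and within -0.047 to 0.049, KDM3A with quantile normalization (0.021) and within -0.13 to 0.0077, and HIF1A with median centring (-0.051) and within -0.025 to 0.047.

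Over all probe sets, 80 were called higher and 152 lower for both cocultures, against 90 and 112 with quantile normalization, 120 and 444 with median centring, 246 and 510 without the dimmest 40%, and 17 and 38 with an intensity trend. The labels do not say whether same-numbered replicates belong together, so the numbers were not taken to pair the samples. Same-numbered replicates deviated together with correlations of 0.03, -0.15 and 0.26 over the 3 pairs of groups. With 2 arrays in each group, these values cannot settle whether the samples were paired. With the replicate number as a block, 1 member, SLC2A3, was called for both cocultures and 0 in the other 3 comparisons, and 110 probe sets were called higher and 182 lower for both cocultures. Dim probe sets limit what can be seen, since 1 of the 32 members lay in the lowest 40% of mean level.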

Other observations

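In the pentose phosphate pathway, which branches from glycolysis to make NADPH and ribose, all 8 measured genes had lower means with monocytes than in monoculture (median -0.37), and 6 of 8 had lower means with T cells (median -0.10). By limma 0 passed in either comparison, with 3 lower with monocytes and 0 with T cells at an unadjusted p under 0.05, against 9.88% and 8.73% of all probe sets. Between the cocultures, all 8 had lower means with monocytes (median -0.40), 0 passed by limma, and 2 were lower at an unadjusted p under 0.05, against 4.03% of all.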
